A study of Mus musculus with 6 samples.

Results

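The genes described here are 10 genes of prostaglandin synthesis, breakdown and reception, taken by symbol from the 27179 genes of a count table: the cyclooxygenases *Ptgs1* and *Ptgs2*, the terminal synthases *Ptges*, *Ptgis* and *Ptgds*, the degrading enzyme *Hpgd*, and the receptor genes *Ptger2*, *Ptger3*, *Ptger4* and *Ptgfr*. Another 28 genes of the same pathway were listed for comparison. Expression was measured by bulk RNA-seq in stromal cells of the pubertal mammary gland, taken from female FVB/N mice (FVB/NJ in the methods of the study) at 6 weeks of age, for which no transgene, deletion or treatment is named. CD34hi and CD34lo fibroblasts were both sorted as Lin-CD24-Pdgfra+ cells, where Lin- means depleted of cells bearing CD31, CD45 or TER-119, and they differed in the surface level of CD34. Each of 3 pools of 2 mice gave 1 library of each population, so there were 3 libraries per population, 6 in all, and same-numbered libraries came from the same animals. The comparison asks how transcription differs between these fibroblast populations.

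Prostaglandins are short-lived lipid signals made from arachidonic acid, which phospholipases and lipases free from membranes and other lipid stores. The cyclooxygenases convert it to prostaglandin H2, terminal synthases turn that into prostaglandin E2, I2, D2 or F2-alpha, and 15-hydroxyprostaglandin dehydrogenase (*Hpgd*) begins their inactivation. The products leave the cell and act on G protein-coupled receptors of the same or neighbouring cells. In the mammary gland, prostaglandin E2 is best known from tumors, where cyclooxygenase-2 in stromal and epithelial cells raises its level.

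In this comparison, 4 genes of synthesis and breakdown were higher in CD34hi fibroblasts, whereas 3 genes of E-prostanoid (EP) receptors were higher in CD34lo fibroblasts. Of the 10 genes, 9 had enough counts to be tested. *Ptgs1*, *Ptgs2*, *Ptges* and *Hpgd* were higher in CD34hi fibroblasts, by 2.05-fold to 4.94-fold. *Ptger2*, *Ptger3* and *Ptger4* were higher in CD34lo fibroblasts, by 4.56-fold to 7.67-fold. *Ptgis*, with a higher mean in CD34hi, and *Ptgfr*, with a higher mean in CD34lo fibroblasts, did not pass the test. With the mouse pool, which pairs the libraries, as a block in the fit, both passed, so that 9 of 9 genes were called.

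A gene was called when its p-value in the quasi-likelihood test of edgeR, adjusted by the Benjamini-Hochberg method over all 15219 genes tested, was under 0.05. Among all of those, 35.6% were called, with 16.9% higher in CD34hi and 18.7% higher in CD34lo fibroblasts, against 77.8% (7 of 9) of the prostaglandin genes, of which 4 were higher in CD34hi and 3 in CD34lo. The prostaglandin genes were chosen with earlier results of these data known, so this contrast is a description only. *Ptger2*, counted among the 7, passed the filter on low counts through its CD34lo libraries. With the pool as a block, 40.5% of all genes and 9 of the 9 prostaglandin genes were called. The median log2 fold change, given throughout as CD34hi vs CD34lo, was 0.73 over the 9 genes and -0.0064 over all genes tested. The values of the CD34hi and CD34lo libraries did not overlap for 7 of the 9 genes, and for 50.1% of all genes tested. In each of the 9 genes the difference had the same sign in all 3 pools. Every gene without overlap has this by definition, and the share over all genes tested was not counted. Since 3 libraries of each population allow an exact two-sided permutation test no p below 0.1, all p-values given are from the model of the whole table. In bulk RNA, fewer cells expressing a gene and less RNA of that gene per cell cannot be told apart, for any of the differences described here.

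The libraries held between 28764779 and 52402410 counts on genes, and 3 counts, taken as the least that a library could show, corresponded to 0.0553 to 0.108 CPM (counts scaled to a common library total after TMM normalization, a floor that covers counting error only). *Cd34*, whose product was used for the sort, had a log2 fold change of 2.02 (standard error, SE, 0.20). The fibroblast markers *Dcn*, *Lum*, *Pdgfra*, *Col1a2* and *Igfbp5* together had 28386 to 31856 CPM in the CD34hi libraries and 31503 to 36429 CPM in the CD34lo libraries. *Dcn* did not pass the test, *Lum*, *Pdgfra* and *Col1a2* were higher in CD34lo, and *Igfbp5* was higher in CD34hi fibroblasts.

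The sequences just before the transcription starts of the 2 cyclooxygenase genes and of the 2 receptor genes with the largest changes are shown because these are the genes on which the opposite directions chiefly rest. The windows are the 250 bases 5′ of the RefSeq start (GRCm38.p6), written 5′ to 3′ on the strand of the gene, with matches to the GC box or the CCAAT box in capitals.
Ptgs1 (chr2:36230176-36230425, plus strand): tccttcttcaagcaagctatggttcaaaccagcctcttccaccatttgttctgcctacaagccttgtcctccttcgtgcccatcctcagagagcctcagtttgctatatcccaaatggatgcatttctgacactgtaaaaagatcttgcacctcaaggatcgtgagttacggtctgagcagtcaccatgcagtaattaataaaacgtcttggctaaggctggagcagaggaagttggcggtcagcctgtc
Ptgs2 (chr1:150099781-150100030, plus strand): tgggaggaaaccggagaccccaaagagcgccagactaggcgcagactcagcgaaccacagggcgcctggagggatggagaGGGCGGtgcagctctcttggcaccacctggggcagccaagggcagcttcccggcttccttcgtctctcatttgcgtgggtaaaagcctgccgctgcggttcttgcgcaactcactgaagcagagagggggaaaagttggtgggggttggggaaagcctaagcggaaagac
Ptger3 (chr3:157566626-157566875, plus strand): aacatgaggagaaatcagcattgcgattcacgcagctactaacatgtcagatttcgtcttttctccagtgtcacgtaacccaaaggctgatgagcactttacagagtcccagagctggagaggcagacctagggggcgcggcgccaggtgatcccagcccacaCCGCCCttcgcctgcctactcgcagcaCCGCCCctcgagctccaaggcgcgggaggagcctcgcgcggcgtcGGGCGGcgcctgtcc
Ptger4 (chr15:5244188-5244437, minus strand): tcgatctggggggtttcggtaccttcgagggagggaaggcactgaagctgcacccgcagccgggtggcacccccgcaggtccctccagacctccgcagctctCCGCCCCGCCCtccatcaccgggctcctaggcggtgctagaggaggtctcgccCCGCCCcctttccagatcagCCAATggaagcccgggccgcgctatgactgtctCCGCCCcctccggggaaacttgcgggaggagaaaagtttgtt

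The windows of *Ptgs2*, *Ptger3* and *Ptger4* end 93, 16 and 356 bases before the gene start given in the count table, and that of *Ptgs1* ends directly at it. Windows were found in RefSeq for 9 of the 10 genes, all but *Ptgis*. They were searched on both strands for 6 motifs: the TATA box (TATAAA), the CCAAT box (CCAAT), the GC box (GGGCGG, which reads CCGCCC on the other strand), the E-box (CACGTG), the full cAMP response element (TGACGTCA) and the AP-1 site (TGACTCA). No motif contains another, and overlapping matches of the same motif were each counted. The GC box was found in 6 of the 9 windows: *Ptgs2* had 1 match, starting 170 bases before the start, *Ptger3* had 3, at 87, 60 and 15 bases, and *Ptger4* had 4, at 148, 143, 95 and 42 bases, of which the first and second overlap. *Ptges* had 2, and *Hpgd* and *Ptgfr* had 1 each. Of 27025 RefSeq promoters of the same length, 32.9% held this motif.

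*Ptger4* and *Ptger2* each held 1 CCAAT box, a motif present in 34.5% of all promoters. The AP-1 site was found once, in the window of *Ptgds*, and was present in 4.43% of all promoters. The letters of the TATA box, the E-box and the full cAMP response element were in none of the 9 windows, and in 13%, 6.05% and 1.62% of all promoters. Only the first listed window of each gene was searched, so their absence from a gene's promoter cannot be concluded. The bases between the *Ptgs2*, *Ptger3* and *Ptger4* windows and the gene starts in the count table were not searched. The starts used for *Hpgd* and *Ptger2* were not found among GENCODE transcripts. The window of *Ptgs1* held no match to any of the 6 motifs and had a GC content of 48%, compared with 61.6% for *Ptgs2*, 62% for *Ptger3* and 66.8% for *Ptger4*. A match describes the letters only.

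*Ptgs1* (gene 19224, chromosome 2, 36230426 to 36252269) encodes cyclooxygenase-1, the form present in many resting tissues. Its level in CD34hi fibroblasts of pools 1, 2 and 3 was 71.3, 67.7 and 58.1 CPM, and in CD34lo fibroblasts 13, 13 and 13.9 CPM. Every CD34hi library was far above every CD34lo library, and the CD34lo libraries were almost equal. The means were 65.7 ± 6.79 and 13.3 ± 0.512 CPM (SD, n = 3 each). The log2 fold change was 2.30 (SE 0.12, adjusted p = 5.19e-06 from edgeR with Benjamini-Hochberg adjustment), a 4.94-fold higher level in CD34hi fibroblasts.

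*Ptgs2* (gene 19225, chromosome 1, 150100124 to 150108017) encodes cyclooxygenase-2, the inducible form, and is itself an immediate early gene. The CD34hi libraries had 886, 852 and 630 CPM in pools 1, 2 and 3, compared with 162, 243 and 153 CPM in the CD34lo libraries. The populations did not overlap, and pool 3 was the lowest in each of them. With means of 790 ± 139 and 186 ± 49.8 CPM (SD, n = 3 each), the log2 fold change was 2.09 (SE 0.22, adjusted p = 0.00014, edgeR with Benjamini-Hochberg adjustment), or 4.25-fold. The log2 difference was 2.45 in pool 1, 1.81 in pool 2 and 2.05 in pool 3.

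*Ptges* (gene 64292, chromosome 2, 30889471 to 30903297) encodes the microsomal synthase that makes prostaglandin E2 downstream of the cyclooxygenases. It had 116, 114 and 91.7 CPM in CD34hi and 46.2, 72.5 and 38.3 CPM in CD34lo fibroblasts of pools 1, 2 and 3. The populations did not overlap, although the CD34lo library of pool 2 came nearer to the CD34hi libraries than the other two did. Means were 107 ± 13.3 and 52.3 ± 17.9 CPM (SD, n = 3 each), a log2 fold change of 1.03 (SE 0.23, adjusted p = 0.00708, edgeR with Benjamini-Hochberg adjustment). The call was lost without pool 1, where the log2 fold change was 0.92 and edgeR's adjusted p was 0.0571.

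*Ptgis* (gene 19223, chromosome 2, 167203196 to 167240537), whose product makes prostacyclin (prostaglandin I2), was expressed in both populations without passing the test. Pools 1, 2 and 3 gave 136, 137 and 81.8 CPM in CD34hi and 97.6, 46.3 and 69.8 CPM in CD34lo fibroblasts. The populations overlapped: the CD34lo library of pool 1 was above the CD34hi library of pool 3. The log2 fold change was 0.73 (SE 0.28) with an adjusted p of 0.0763 from edgeR, and 0.75 with an adjusted p of 0.0232 when the mouse pool entered the fit as a block. Within pools the log2 difference was 0.47, 1.56 and 0.23, and leaving out pool 2 gave a log2 fold change of 0.38 (adjusted p = 0.387, edgeR). Leaving out the CD34lo library of pool 1 gave 1.05 (adjusted p = 0.0253, edgeR), and leaving out the CD34hi library of pool 3 gave 0.94 (adjusted p = 0.0285, edgeR).

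*Ptgds* (gene 19215, chromosome 2, 25466712 to 25469749), the lipocalin-type prostaglandin D2 synthase, was almost undetected. The CD34hi libraries held 1, 0 and 0 counts and the CD34lo libraries 4, 3 and 0 counts. With 8 counts over all 6 libraries it was not tested, and no difference could be detected at this depth.

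*Hpgd* (gene 15446, chromosome 8, 56294552 to 56321046) encodes 15-hydroxyprostaglandin dehydrogenase, which oxidizes prostaglandins to products with little receptor activity. Levels were 51.2, 43.0 and 76.8 CPM in CD34hi and 8.02, 12.8 and 22.9 CPM in CD34lo fibroblasts of pools 1, 2 and 3. Pool 3 was the highest in each population, and even its CD34lo library was below every CD34hi library. The means were 57.0 ± 17.6 and 14.6 ± 7.61 CPM (SD, n = 3 each), with a log2 fold change of 1.97 (SE 0.37, adjusted p = 0.00319, edgeR with Benjamini-Hochberg adjustment), or 3.93-fold. The enzyme of breakdown was thus higher in the same population as the cyclooxygenases and *Ptges*.

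**Figure D1:**
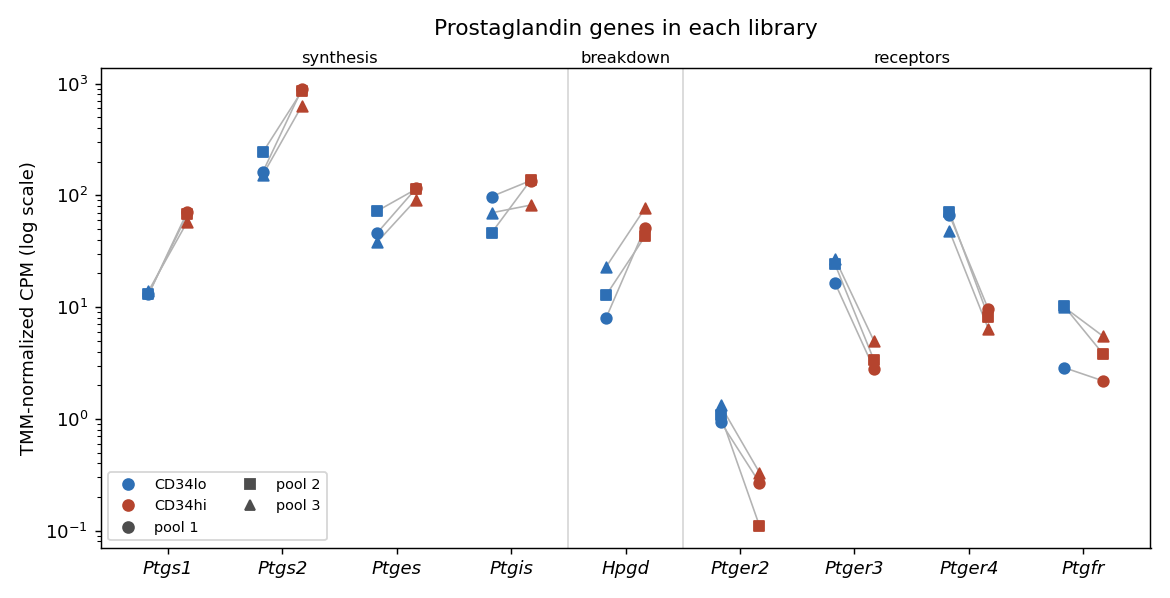
TMM-normalized CPM of the 9 tested prostaglandin genes in each library, on a log axis, with CD34lo in blue, CD34hi in red, pools 1, 2 and 3 as circles, squares and triangles, and grey lines joining the libraries of a pool. All lines rise from CD34lo to CD34hi for synthesis and breakdown and fall for the receptors, and the populations overlap for *Ptgis* and *Ptgfr*.

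*Ptger4* (gene 19219, chromosome 15, 5233404 to 5243831) encodes EP4, a receptor for prostaglandin E2 that raises cyclic AMP. It had 9.57, 8.2 and 6.37 CPM in CD34hi and 66.6, 70.7 and 48.0 CPM in CD34lo fibroblasts of pools 1, 2 and 3. The populations were far apart, with pool 3 the lowest in each. With means of 8.05 ± 1.60 and 61.8 ± 12.1 CPM (SD, n = 3 each), the log2 fold change of -2.94 (SE 0.20, adjusted p = 1.65e-05, edgeR with Benjamini-Hochberg adjustment) was the largest among the 9 genes and corresponded to a 7.67-fold higher level in CD34lo fibroblasts.

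*Ptger3* (gene 19218, chromosome 3, 157566892 to 157644758) encodes EP3, a prostaglandin E2 receptor that mainly lowers cyclic AMP. The CD34hi libraries had 2.82, 3.37 and 4.98 CPM, and the CD34lo libraries 16.4, 24.2 and 27.1 CPM, in pools 1, 2 and 3. Here too the populations did not overlap, and in each of them pool 1 was the lowest and pool 3 the highest. Means were 3.72 ± 1.13 and 22.6 ± 5.53 CPM (SD, n = 3 each), a log2 fold change of -2.59 (SE 0.26, adjusted p = 0.000114, edgeR with Benjamini-Hochberg adjustment), or 6.04-fold higher in CD34lo fibroblasts.

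*Ptger2* (gene 19217, chromosome 14, 44988111 to 45003820) encodes EP2, which like EP4 raises cyclic AMP, and was the lowest of the tested receptors. It had 12, 4 and 15 counts in the CD34hi libraries and 51, 30 and 41 counts in the CD34lo libraries, or 0.268, 0.110 and 0.331 CPM compared with 0.941, 1.08 and 1.32 CPM. Every CD34lo library was above every CD34hi library, at levels close to the floor in CD34hi fibroblasts. The gene passed the filter on low counts through its CD34lo libraries, so its call is not independent of the filter. The log2 fold change was -2.19 (SE 0.45, adjusted p = 0.00545, edgeR with Benjamini-Hochberg adjustment), with means of 0.236 ± 0.114 and 1.11 ± 0.191 CPM (SD, n = 3 each).

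*Ptgfr* (gene 19220, chromosome 3, 151798610 to 151837528), the receptor for prostaglandin F2-alpha, did not pass the test. Pools 1, 2 and 3 gave 2.19, 3.84 and 5.51 CPM in CD34hi and 2.88, 10.2 and 10.0 CPM in CD34lo fibroblasts. The populations overlapped through pool 1, which was the lowest in each of them. The log2 fold change was -0.99 (SE 0.49, adjusted p = 0.149, edgeR), and with the mouse pool as a block it was -0.90 with an adjusted p of 0.00883. Leaving out a pool or a library moved it between -0.68, without the CD34hi library of pool 1 (adjusted p = 0.355, edgeR), and -1.37, without the CD34lo library of pool 1 (adjusted p = 0.0206, edgeR). Without pool 1 altogether it was -1.09 (adjusted p = 0.0192, edgeR), without pool 2 it was -0.73 (adjusted p = 0.463, edgeR), and limma-voom gave -0.72 (adjusted p = 0.349).

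Divided by gene length, levels can be compared between genes. In CD34hi fibroblasts, *Ptgs2* was the highest of the 9 genes, at 190 ± 33.5 CPM per kb (SD, n = 3), above 97.8% of all genes tested, and it was followed by *Ptgis* with 67.4 ± 17.9 CPM per kb. *Hpgd* (33.1 ± 10.3 CPM per kb), *Ptges* (29.4 ± 3.66 CPM per kb) and *Ptgs1* (22.9 ± 2.37 CPM per kb) came next. The 4 tested receptor genes of this set were all lower than its enzymes, with 2.71 ± 0.541 CPM per kb for *Ptger4*, 1.84 ± 0.558 for *Ptger3*, 0.871 ± 0.376 for *Ptgfr* and 0.0628 ± 0.0301 for *Ptger2*. Of the neighbours in this order, *Hpgd* and *Ptges*, and *Ptger4* and *Ptger3*, had overlapping library values.

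In CD34lo fibroblasts the order was different, with *Ptger4* (20.8 ± 4.09 CPM per kb) placed above *Ptges* (14.3 ± 4.91) and *Ptger3* (11.2 ± 2.74) above *Hpgd* (8.48 ± 4.43) and *Ptgs1* (4.64 ± 0.179). *Ptgs2* (44.8 ± 12 CPM per kb) and *Ptgis* (40.7 ± 14.7) were the highest and had overlapping library values. *Ptger4* overlapped *Ptges*, *Ptges* overlapped *Ptger3*, *Ptger3* overlapped *Hpgd*, and *Hpgd* overlapped *Ptgs1*. *Ptgfr* (1.75 ± 0.950 CPM per kb) and *Ptger2* (0.295 ± 0.0507) were the lowest and stood apart from the rest and from each other. *Ptger4* was above 82.9% of all tested genes in CD34lo and above 38.3% in CD34hi fibroblasts, while *Ptgs1* was above 48% in CD34lo and 83.2% in CD34hi fibroblasts.

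**Figure D2:**
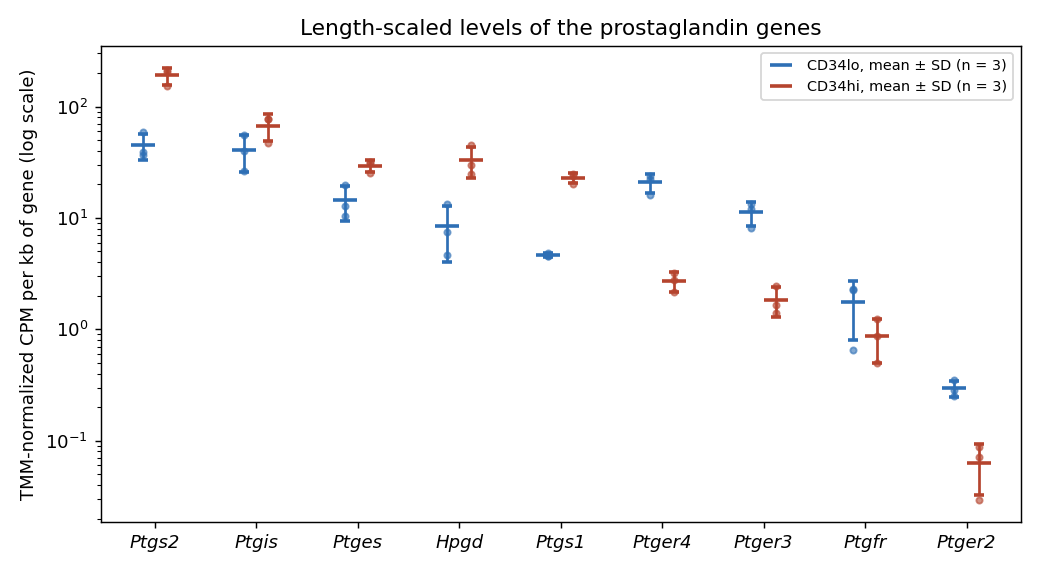
Level of each tested prostaglandin gene in TMM-normalized CPM per kb of gene, on a log axis, with points for libraries and bars for mean ± SD (n = 3) of CD34lo (blue) and CD34hi (red) fibroblasts. The cyclooxygenases, *Ptges* and *Hpgd* lie higher in CD34hi, and *Ptger4* and *Ptger3* fall from 20.8 and 11.2 CPM per kb in CD34lo to 2.71 and 1.84 in CD34hi fibroblasts.

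The share of each cyclooxygenase gene was alike in range in the populations, whereas the make-up of the EP receptor genes was not. *Ptgs2* made up 89.6%, 89.7% and 88.2% of the summed CPM per kb of the cyclooxygenase genes in the CD34hi libraries of pools 1, 2 and 3, and 89.6%, 92.8% and 88.3% in the CD34lo libraries. These ranges overlapped. The share of *Ptger4* in the summed CPM per kb of *Ptger2*, *Ptger3* and *Ptger4* was 68.7%, 61.9% and 45.7% in CD34hi and 72.8%, 66.0% and 54.0% in CD34lo fibroblasts. It was lower in CD34hi in every pool, but varied more between pools than between populations. With *Ptger1*, the gene of EP1, included, *Ptger1* made up 64.0%, 66.0% and 62.6% of the summed CPM per kb of the 4 EP receptor genes in CD34hi and 16.1%, 19.4% and 16.6% in CD34lo fibroblasts, and *Ptger4* made up 24.8%, 21.1% and 17.1% in CD34hi and 61.0%, 53.2% and 45.0% in CD34lo fibroblasts. *Ptger1* was thus the largest of the 4 in every CD34hi library and *Ptger4* in every CD34lo library, without overlap in either share. The level of *Ptger1* itself was 8.29 ± 0.395 CPM per kb in CD34hi and 6.86 ± 1.60 CPM per kb in CD34lo fibroblasts (SD, n = 3 each).

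Of the other 28 pathway genes, 22 could be tested, and 8 were higher in CD34hi, 4 were higher in CD34lo and 10 did not pass. The share called was 54.5%, against 35.6% of all genes tested, with a median log2 fold change of 0.21. These genes too were chosen with earlier results of these data known. Among enzymes that release arachidonic acid, 3 of 8 tested were higher in CD34hi and 2 in CD34lo fibroblasts. The shares over all genes tested were 16.9% and 18.7%. The 2 genes higher in CD34lo, *Pla2g2d* and *Pla2g5*, passed the filter on low counts through their CD34lo libraries. Their calls in that direction are therefore not independent of the filter. *Mgll*, the monoacylglycerol lipase, had 108, 129 and 124 CPM in CD34hi and 7.30, 12.8 and 10.1 CPM in CD34lo fibroblasts of pools 1, 2 and 3. This gap between the populations was wider than for any of the 9 prostaglandin genes, with a log2 fold change of 3.58 (SE 0.21, adjusted p = 6.92e-06, edgeR with Benjamini-Hochberg adjustment).

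*Pla2g4a*, the cytosolic phospholipase A2 that feeds the cyclooxygenases, had 87.6, 74.6 and 94.2 CPM in CD34hi and 28.8, 27.2 and 36.3 CPM in CD34lo fibroblasts, without overlap. Its log2 fold change was 1.47 (SE 0.15, adjusted p = 0.000108, edgeR with Benjamini-Hochberg adjustment). *Plaat3*, a phospholipase of adipose tissue, was higher in CD34hi fibroblasts by a log2 fold change of 0.61. The secreted phospholipases *Pla2g2d* (-2.57) and *Pla2g5* were higher in CD34lo fibroblasts at very low levels. *Pla2g2d* had 6, 0 and 11 counts in the CD34hi and 37, 27 and 23 counts in the CD34lo libraries. *Pla2g5* had 1, 0 and 0 counts in the CD34hi and 40, 60 and 9 counts in the CD34lo libraries. Its fitted log2 fold change of -6.57 (SE 1.16) therefore rests on 1 count in CD34hi fibroblasts. In log2 CPM with a prior count of 2, the difference was -3.44, -5.46 and -2.76 in pools 1, 2 and 3. *Pla2g2e*, *Pla2g6* and *Pla2g12a* did not pass the test, *Pla2g10* had 11 counts in all and was not tested, and *Pla2g2a* had 0 counts.

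The other synthases moved less. *Akr1b3*, an aldo-keto reductase that can make prostaglandin F2-alpha, was higher in CD34hi fibroblasts (log2 fold change 0.46, SE 0.15, adjusted p = 0.0424, edgeR with Benjamini-Hochberg adjustment). *Ptges2*, *Ptges3* and *Prxl2b* did not pass, with *Ptges3*, the cytosolic prostaglandin E synthase, at 0.48 (adjusted p = 0.0699, edgeR, and 0.0484 with the pool as a block). *Hpgds* (17 counts in all) and *Tbxas1* (28 counts in all) were not tested. The later enzymes of breakdown followed *Hpgd* in direction: *Ptgr3* (log2 fold change 0.69), *Ptgr1* (0.58) and *Ptgr2* (0.50) were all higher in CD34hi fibroblasts, each without overlap between the populations. *Cbr1* (0.47), listed with them, was also higher in CD34hi fibroblasts without overlap.

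Transport showed the other direction or no call. *Slco2a1*, the carrier that takes prostaglandins into cells for breakdown, had 34.9, 47.1 and 38.0 CPM in CD34hi and 101, 42.5 and 67.0 CPM in CD34lo fibroblasts of pools 1, 2 and 3. The populations overlapped through pool 2, where CD34hi was the higher. It passed narrowly, with a log2 fold change of -0.81 (SE 0.28, adjusted p = 0.0487, edgeR with Benjamini-Hochberg adjustment). *Abcc4*, an exporter of prostaglandin E2, was at -0.34 (adjusted p = 0.127, edgeR, and 0.0485 with the pool as a block).

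Among the other receptor genes, 1 of 4 tested passed, against 35.6% of all genes tested. *Ptgir*, the prostacyclin receptor, which raises cyclic AMP, had 1.23, 1.19 and 1.65 CPM in CD34hi and 7.49, 9.17 and 9.35 CPM in CD34lo fibroblasts. It was higher in CD34lo in every pool, without overlap, with a log2 fold change of -2.67 (SE 0.21, adjusted p = 3.27e-05, edgeR with Benjamini-Hochberg adjustment). *Ptger1*, which encodes EP1, did not pass at 0.27 (SE 0.17), with 17.3 ± 0.822 CPM in CD34hi and 14.3 ± 3.32 CPM in CD34lo fibroblasts (SD, n = 3 each). The thromboxane receptor gene *Tbxa2r* and *Ptgfrn*, a regulator of the prostaglandin F receptor, did not pass either. The prostaglandin D2 receptor genes *Ptgdr* (23 counts in all) and *Ptgdr2* (4 counts in all) were not tested.

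**Figure D3:**
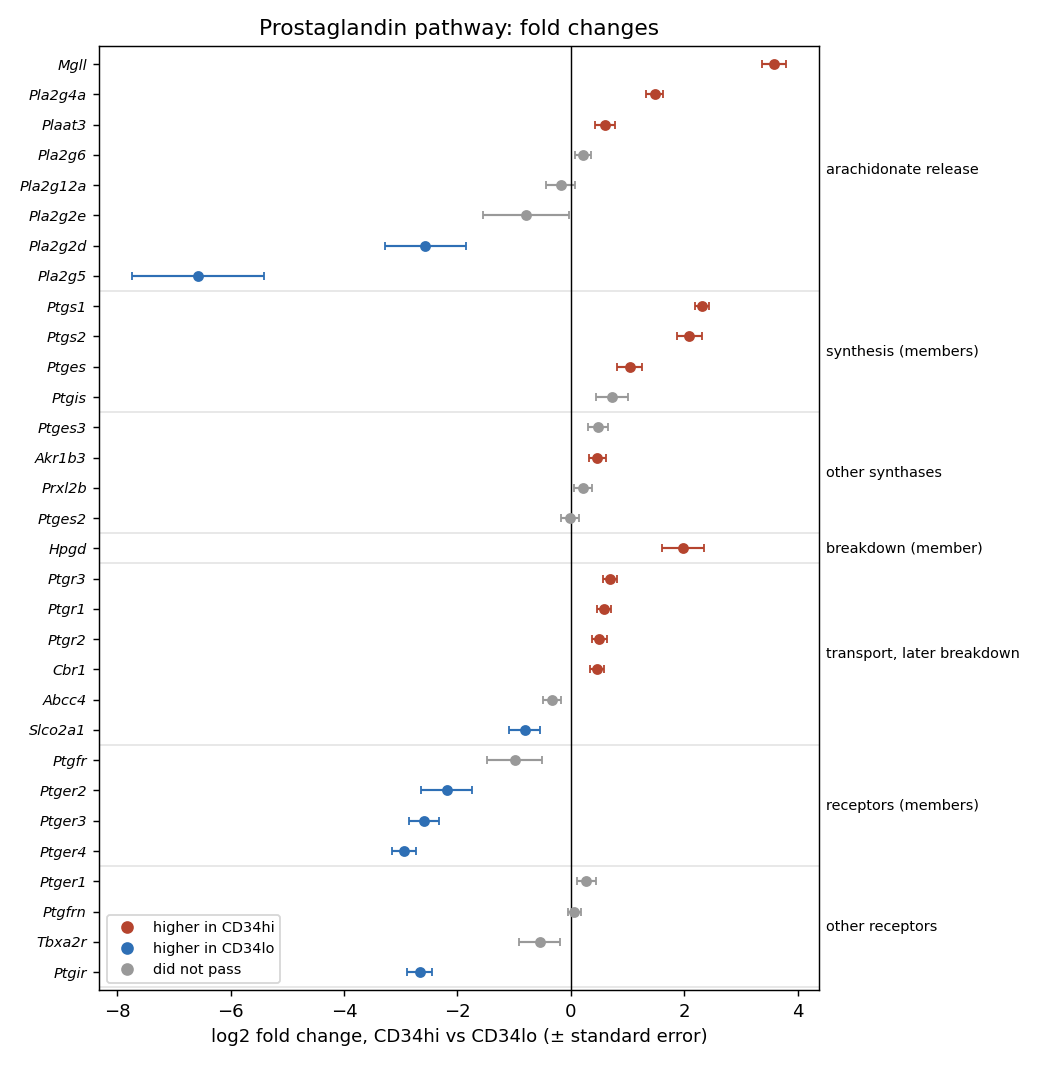
Log2 fold changes (CD34hi vs CD34lo) of the tested prostaglandin pathway genes with standard errors, grouped by step. Red genes were higher in CD34hi, blue genes higher in CD34lo and grey genes did not pass; *Mgll* lies farthest to the right at 3.58, the receptor genes *Ptger4*, *Ptgir* and *Ptger3* lie at -2.94, -2.67 and -2.59, and the fitted value of *Pla2g5* rests on 1 count in CD34hi.

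EP2, EP4 and the prostacyclin receptor raise cyclic AMP and EP3 mainly lowers it, and the genes of all 4 were higher in CD34lo fibroblasts. Of 6 listed genes that respond to cyclic AMP, 5 were higher in CD34lo fibroblasts, against 18.7% of all genes tested. They were *Nr4a2* (log2 fold change -2.99), *Nr4a3* (-2.28), *Sik1* (-1.14), *Pde4b* (-1.11) and *Crem* (-0.78), while *Areg* at -0.32 did not pass. Their summed level was 413 to 604 CPM in the CD34hi and 1171 to 1540 CPM in the CD34lo libraries. Several of them also respond to other stimuli. This list and the next were chosen with earlier results of these data known, so their counts are descriptions only. Of 14 immediate early and heat shock genes, which cell handling can induce, 10 were higher in CD34lo, against 18.7% of all genes tested. Of these 14, 0 were higher in CD34hi, against 16.9%, and 4 (*Egr1*, *Atf3*, *Dusp1* and *Socs3*) did not pass. The median log2 fold change of the 14 genes was -1.04. Their summed level was 25107 to 29803 CPM in CD34hi and 44340 to 59181 CPM in CD34lo libraries. *Ptgs2*, itself an immediate early gene, was higher in CD34hi fibroblasts. The part of these responses in the differences of the prostaglandin genes was not tested.

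**Figure D4:**
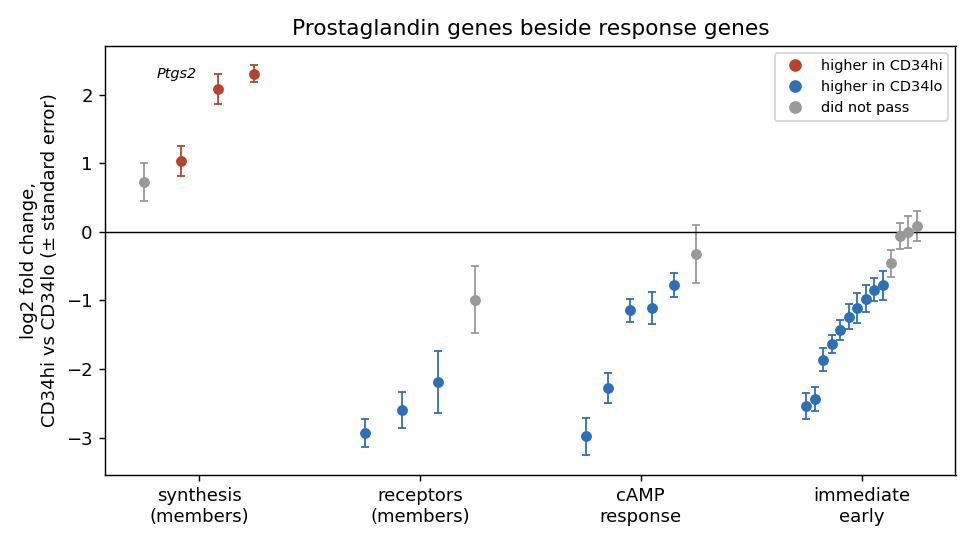
Log2 fold changes (CD34hi vs CD34lo, with standard errors) of the prostaglandin synthesis and receptor genes beside the 6 cyclic AMP response genes and the 14 immediate early and heat shock genes, coloured as higher in CD34hi (red), higher in CD34lo (blue) or not passing (grey). *Ptgs2* is marked at 2.09, and of the 14 immediate early and heat shock genes 10 were higher in CD34lo and 4 did not pass.

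Markers of other cell types also differed between the populations, as did 35.6% of all genes tested. Of 5 pericyte markers, *Notch3*, *Cspg4*, *Mcam* and *Rgs5* were higher in CD34lo and *Kcnj8* was higher in CD34hi fibroblasts. Their summed levels were 36.8 to 49.1 CPM in CD34hi and 68.9 to 93.2 CPM in CD34lo libraries. *Kcnj8* had means of 34.7 CPM in CD34hi and 13.3 CPM in CD34lo fibroblasts (2.63-fold higher in CD34hi). The means in CD34hi and CD34lo fibroblasts were 4.44 and 43.1 CPM for *Notch3* (9.71-fold), 3.12 and 18.6 CPM for *Cspg4* (5.93-fold), 1.27 and 6.85 CPM for *Mcam* (5.43-fold), and 0.801 and 2.19 CPM for *Rgs5* (2.75-fold). Of 6 macrophage markers, 3 were tested and *Fcgr2b* alone was higher in CD34lo, and the summed levels were 2.93 to 3.22 CPM in CD34hi and 27.7 to 48.8 CPM in CD34lo libraries. *Fcgr2b* supplied 36.0 CPM of the CD34lo mean, while *Ptprc*, which encodes CD45, had 44 counts in all, *C1qa* 117 and *Cd163* 20.

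Of 5 endothelial markers, *Tek* and *Kdr* were higher in CD34hi, *Pecam1* and *Cdh5* were higher in CD34lo and *Vwf* did not pass, with sums of 535 to 697 CPM in CD34hi and 55.2 to 97.1 CPM in CD34lo libraries. *Tek* supplied 543 CPM of the CD34hi mean, and *Pecam1*, which encodes the depleted CD31, had 6.65 ± 3.57 CPM in CD34hi and 14.7 ± 3.28 CPM in CD34lo fibroblasts (SD, n = 3 each). Epithelial markers (2 of 6 higher in CD34lo, *Acta2* and *Itga6*) summed to 34.7 to 41.1 CPM in CD34hi and 68.8 to 69.7 CPM in CD34lo libraries. *Acta2* supplied 3.24 CPM of the CD34hi mean and 33.3 CPM of the CD34lo mean, and *Epcam*, *Krt8*, *Krt18* and *Krt14* did not pass. Schwann cell markers (1 of 4 higher in CD34hi, *Mbp*, and 2 in CD34lo) summed to 42.1 to 52.1 and 20.8 to 26.8 CPM, and the 2 keratinocyte markers, both higher in CD34hi, to 14.3 to 19.9 and 3.60 to 7.12 CPM. Muscle, adipocyte and mast cell markers stayed below 6 CPM in sum in every library, and the mast cell gene *Fcer1a* had 0 counts. The part of other cell types in the differences of the prostaglandin genes was not tested.

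Over the 6 libraries, the genes whose pattern was most like that of *Ptgs1* were *Clip4*, *Ugp2* and *Dcbld2*, with root mean square differences in centred log2 CPM of 0.100, 0.123 and 0.123. For *Ptger4* they were *Klf5* (0.101), *Egr3* (0.102) and *Gli1* (0.114). *Ptgs1* and *Ptger4* were taken because they had the largest positive and negative changes among the prostaglandin genes, and the likeness is a description only, since the libraries share their split into populations.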

How the data were processed

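Bulk RNA-seq of CD34hi and CD34lo fibroblasts was analysed from a table of whole-number counts per gene and library, which the authors deposited without normalization or a filter on low counts. TruSeq libraries of polyA RNA were sequenced on a NextSeq instrument, and reads were aligned to GRCm38/mm10 and counted with Rsubread by the authors. The annotation, the strand setting and the treatment of reads with several alignments are not given in the sources used here. The gene lengths, also deposited, were used for CPM per kb. Symbols came from a reference gene table (25275 of 27179 genes), in which *Ptgr3* appears as *Zadh2*. No other gene of the table overlapped any of the 10 prostaglandin genes.

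Analysis was done with edgeR 4.0.16 (R 4.3.3): filterByExpr by population (15219 genes kept), TMM normalization, and the two-sided quasi-likelihood test, with p-values adjusted by the Benjamini-Hochberg method over all tested genes. The standard error (SE) of a log2 fold change is its size over the root of the test's F, and a prior count of 2 was used for log2 CPM. Groups came from the labels. Same-numbered libraries came from the same mouse pool, and their deviations from the population means had correlations of 0.279, 0.0844 and 0.243 across genes in pools 1, 2 and 3. For differently numbered libraries the correlations lay between -0.279 and 0.0681, so that of pool 2 was only a little above this range. The fit without the pool was kept because the methods of the study name no such covariate. The common biological coefficient of variation was 19.7% (14.9% with the block), TMM factors lay between 0.967 and 1.04, and replicates differed beyond counting noise (a chi-square of 22.3 or more for each degree of freedom). The code was tested on simulated data.

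Alternatives were limma-voom (limma 3.58.1), DESeq2 1.42.0, RLE and upper-quartile normalization, other filters on low counts, the pool as a block, thinning of counts to the smallest library, each pool or library left out, and stricter thresholds. The prostaglandin genes and all lists were chosen with earlier results of these data known. The text names all 10 genes, listed pathway genes that passed or could not be tested, and the 3 genes most like the largest changes in each direction.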

Additional observations from a re-analysis of the deposited data

How the results depend on the processing

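The number of genes that differed between the populations was 5411. It was 3444 at an adjusted p under 0.01 and 2986 when changes also had to reach 1 on the log2 scale, both stricter by construction, and between 3468 (without pool 1) and 5236 when a pool or a library was left out. Over 20 alternatives for each of the 9 prostaglandin genes (19 for *Ptger2*, which had too few counts when every library had to hold at least 10), 168 of 179 values had the same sign and the same call, 10 passed where the reported value did not, 1 no longer passed and 0 reversed. The value lost was that of *Ptges* without pool 1. The values gained were those of *Ptgis* in 6 alternatives, including DESeq2 (adjusted p = 0.0280) and no filter on low counts (edgeR's adjusted p = 0.0480), and of *Ptgfr* in 4. Blocking on the mouse pool (the replicate number) in edgeR gave 6161 genes, and apart from *Ptgis* and *Ptgfr* it changed no call among the 9 genes. The cause of these shifts was not tested. Depth left *Ptgds* untested, and *Ptger2*, the lowest gene tested, had 4 counts in 1 library.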

Other observations

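Of 10 listed genes of other routes of eicosanoid synthesis and reception, 7 could be tested, 1 was higher in CD34hi, 2 were higher in CD34lo and 4 did not pass. The 3 calls among 7 are near the 35.6% called over all genes tested, so the count says nothing particular about these routes, and single genes are given as values. *Cysltr2*, a receptor for cysteinyl leukotrienes, had 1.27, 1.30 and 2.10 CPM in CD34hi and 0.0738, 0.0719 and 0.225 CPM in CD34lo fibroblasts of pools 1, 2 and 3, a log2 fold change of 3.68 (SE 0.52, adjusted p = 0.000757, edgeR with Benjamini-Hochberg adjustment). Every CD34hi library was above every CD34lo library. *Cysltr2* passed the filter on low counts through its CD34hi libraries, and *Alox5ap* through its CD34lo libraries. *Alox5ap*, which assists 5-lipoxygenase, was higher in CD34lo (0.560 ± 0.135 vs 0.0609 ± 0.0436 CPM, SD, n = 3 each), and so was the epoxide hydrolase *Ephx2* (5.63 ± 1.36 vs 2.26 ± 0.822 CPM, SD, n = 3 each). *Alox5* itself had 38 counts in all, *Ltb4r1* 26 and *Alox15* 3, and none of these was tested. *Lta4h*, the leukotriene A4 hydrolase, was the most abundant of the 10 genes in CPM, at 57.9 ± 3.78 in CD34hi and 46.4 ± 5.64 in CD34lo fibroblasts (SD, n = 3 each), and did not pass (log2 fold change 0.32, adjusted p = 0.0741, edgeR).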
